A study of Caenorhabditis elegans with 6 samples.

Results

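Reproducible A-to-I editing sites on chromosome V were examined in RNA from dissected *C. elegans* germlines. A site belonged to the set if SAILOR, the editing caller of the study, gave its position and strand a confidence of 0.75 or more in each of the 3 wild-type replicates, if the adr-2(-) list did not hold it, whatever the confidence, and if it did not lie in scyl-1 or gid-7. This left 202 sites, 20.0% of the 1012 reproducible sites of the whole genome. They lay in 8 genes and in 2 intergenic groups. The confidence and the edited share of each wild-type replicate chose the sites, so editing levels are given as a description and no level was tested against adr-2(-).

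Germlines came from synchronized young adult hermaphrodites raised at 20°C. The wild-type animals were strain N2, with 3 replicates, and the adr-2(-) animals were strain BB20, with 3 replicates, which carries the deletion allele adr-2(ok735) in every cell and not in the germline alone. RNA was poly(A)-selected and sequenced from stranded libraries. Editing calls exist for each wild-type replicate, whereas adr-2(-) has 1 merged list, so its calls have no spread between replicates.

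ADARs are enzymes that bind double-stranded RNA and convert adenosine to inosine, which sequencing reads as guanosine. ADR-2 is the only catalytically active ADAR of *C. elegans*. Where a transcript folds back on itself over a long stretch, for example at inverted repeats in an intron or a 3′ UTR, ADARs typically edit many adenosines close together, each in a part of the molecules. The edited share of the reads at a position, here percent editing, measures how often it was edited.

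The libraries differed in depth. Reads on genes numbered between 44991286 and 96397215 in wild type, with replicate 2 the deepest, and between 33658937 and 38310069 in adr-2(-). At the 202 sites the median coverage was 48, 136 and 53 reads for wild-type replicates 1, 2 and 3, over ranges of 6 to 405, 9 to 738 and 6 to 276 reads. At least 20 reads in every replicate covered 161 of the sites. Germ cell and oocyte markers such as glh-1 and gld-1 were high in every library, with summed normalized counts of 305095 to 307115 in wild type and 272020 to 314764 in adr-2(-). Body wall muscle markers summed to 781 to 1070 in wild type and to 737 to 8381 in adr-2(-), and intestinal markers to 459 to 856 and 587 to 3299, with the highest values of both in adr-2(-) replicate 1. In that library unc-54 held 7747 normalized counts and hlh-1, also a muscle marker, 2.54. Neuronal markers summed to 4118 to 4304 in wild type and 3669 to 4819 in adr-2(-), of which snb-1 averaged 4072 and 4013. Gonadal sheath markers summed to 1511 to 1869 and 1591 to 1903, and sperm markers to 15.5 to 116 and 19.5 to 187. None of the markers tested in the 6 lists examined was called between the strains. The markers msp-10, elt-2 and hlh-1 averaged under 10 normalized counts and were not tested. Whether these other tissues have a part in any result was not tested. The deleted gene followed the labels: the 3 wild-type libraries held 3020, 2822 and 2852 normalized counts of adr-2, and the adr-2(-) libraries 29.2, 61.0 and 35.6.

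The 202 sites fell into a small number of dense groups. Of these, 197 (97.5%) lay within 50 nt of another member, and the median distance to the nearest one was 2 nt. The deposited annotation placed 191 of them (94.6%, 95% exact Clopper-Pearson interval 90.5% to 97.3%) in 3′ UTRs, 9 between genes and 2 in introns, and none in coding sequence. Because neighbouring sites share reads and transcripts, this interval covers counting error only and understates the error. Of the other 810 reproducible sites, 85.1% were in 3′ UTRs. Percent editing averaged over the replicates had a median of 29.9% on chromosome V, with lower and upper quartiles of 15.02% and 45.1%, from 2.87% at the lowest site to 89.5% at the highest. At the other 810 sites the median was 24.2%, with median coverages of 67, 139 and 58 reads in wild-type replicates 1, 2 and 3. Lower shares pass the confidence minimum at deeper coverage, and whether coverage has a part in this difference was not tested. Editing reached 50% or more at 39 of the 202 sites (19.3%) and at 20.1% of the other sites.

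The edited genes lay towards the ends of the chromosome. The middle 50% of the annotated span of chromosome V runs from 5230818 to 15692094, and all 8 genes and 193 of the 202 sites (95.5%) were outside it. Of the 1532 chromosome V genes whose expression could be tested, 36.9% were outside it too. Of scyl-1 and gid-7, the edited genes left out by the rule, 1 was outside it. Genes were chosen by their editing, so this position is a description. Positions of sites are in WS275 coordinates, and gene limits come from the Ensembl annotation of WBcel235, the assembly that WS275 uses.

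Of the 202 sites, 186 (92.1%) were in 5 genes, and these were mdt-17, algn-7, sumv-2, W02H5.2 and sqv-6. Their sites did not spread evenly over the 3′ UTR. Counting a gap of at least 100 nt as the end of a block, algn-7 and mdt-17 had 3 blocks each, sumv-2 and sqv-6 had 2 and W02H5.2 had 1. The gaps between blocks were 155 to 364 nt long, against median gaps of 4 to 11 nt in the blocks with at least 5 sites. The definition of a block sets the former at 100 nt or more. Whether coverage between the blocks was enough for calls was not tested.

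**Figure D1:**
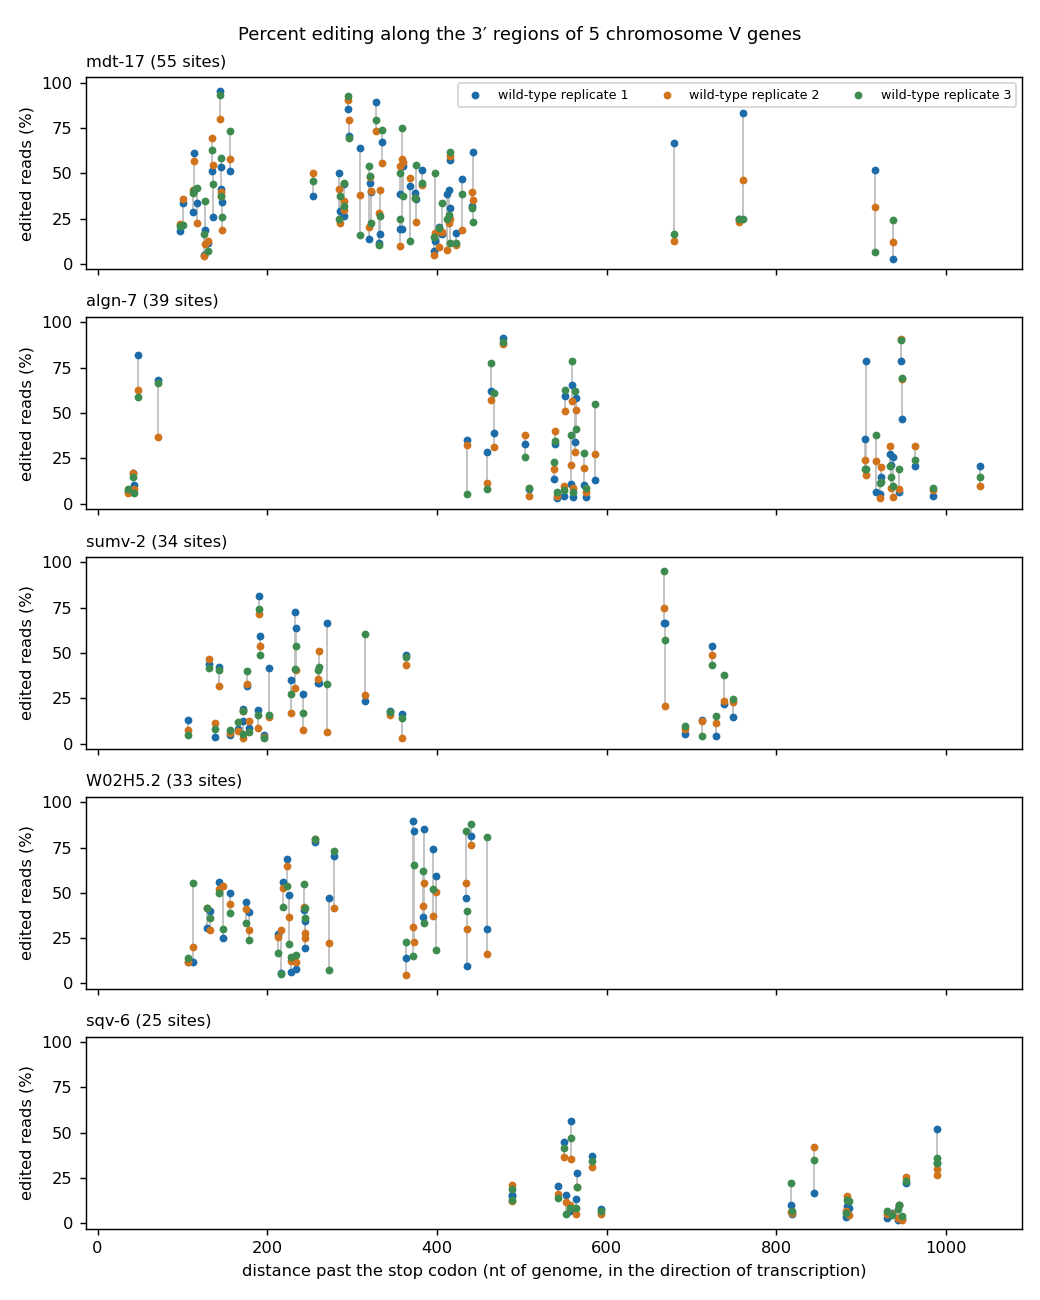
Percent editing at each site of the 5 chromosome V genes with the most sites, against the distance past the stop codon in nt of genome in the direction of transcription. Each point is 1 wild-type replicate and each grey line spans the 3 replicates of a site. Only member sites are drawn. They stand in blocks with stretches without members between them, and sqv-6 has no member above 50% on average.

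The gene with the most sites was mdt-17 (WBGene00007017), which encodes a subunit of Mediator, the complex that links transcription factors to RNA polymerase II. It lies on the minus strand at 20250806 to 20267247. Its 55 sites lay between 20251031 and 20251872, 97 to 938 nt past the stop codon. Mean percent editing over the sites was 39.3%, 35.9% and 37.7% for wild-type replicates 1, 2 and 3 (37.7% ± 1.70, SD, n = 3). Single sites ranged from 8.36% to 89.4%, and 12 of the 55 reached 50%. The replicates thus lay within a few percentage points of each other for the gene as a whole, while its sites covered most of the possible range.

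The edited stretch of mdt-17 is not part of every annotated mRNA. In 2 of its 4 annotated transcripts the segment from 20251002 to 20251953 (952 nt) is spliced out of the 3′ UTR as an intron, and all 55 sites lay inside this segment. Reads over the sites therefore come from molecules that still held the segment. Coverage at all positions listed for the span of the sites had a median of 39, 88 and 38 reads in wild-type replicates 1, 2 and 3, below the 361, 705 and 346 reads at positions listed in the coding sequence of the gene. Most listed coding positions had 1 mismatched read, and such positions are listed more often where coverage is deep, so the sizes of these medians cannot be compared directly. The block nearest the stop codon held 50 of the sites within 346 nt, with a mean of 38.4% ± 1.28 (SD, n = 3). The next block, of 3 sites, averaged 58.3%, 27.2% and 22.2% in replicates 1, 2 and 3, from median coverages of 12, 39 and 8 reads, and the last block of 2 sites averaged 21.5% ± 5.87 (SD, n = 3).

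The gene algn-7 (WBGene00013362) belongs to a family known from yeast for the enzyme that starts the assembly of N-linked glycans. It lies on the minus strand at 19926638 to 19934323, with 39 sites between 19926841 and 19927845. Mean percent editing was 30.5%, 27.8% and 32.1% for wild-type replicates 1, 2 and 3 (30.1% ± 2.18, SD, n = 3). The 3 blocks lay 36 to 71, 435 to 586 and 905 to 1040 nt past the stop codon and held 5, 20 and 14 sites. Their means were 31.3% ± 5.49, 32.4% ± 3.45 and 26.5% ± 1.63 (SD, n = 3 each). The middle block was above the last in each replicate, while the block nearest the stop codon varied most. High and low sites occurred together, since 9 sites were at 50% or more and 9 were under 10%.

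The gene sumv-2 (WBGene00018812) was named as a suppressor of the synMuv phenotype, which arises on loss of chromatin regulators. It lies on the plus strand at 4617560 to 4628539 and had 34 sites between 4627687 and 4628329. Mean percent editing was 31.7%, 24.4% and 30.1% for wild-type replicates 1, 2 and 3 (28.7% ± 3.88, SD, n = 3). The first block held 26 sites, 107 to 364 nt past the stop codon, at 27.9% ± 4.38 (SD, n = 3). A gap of 304 nt separated it from the second block of 8 sites, at 31.5% ± 4.11 (SD, n = 3). The means of the blocks differed by less than their SDs.

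W02H5.2 (WBGene00020957) lies on the plus strand at 2639335 to 2646594 and had 33 sites between 2646486 and 2646838. Mean percent editing was 43.4%, 36.9% and 40.9% for wild-type replicates 1, 2 and 3 (40.4% ± 3.25, SD, n = 3), the highest mean of the 5 genes. It was above mdt-17, the next, in each replicate, but the means differed by less than its SD. No site of the gene was under 10%. The deposited calls name all 33 sites as 3′ UTR, but in the Ensembl annotation the gene ends at 2646594 and 23 of the sites lay past that end, by up to 244 nt. Over the 10 sites inside the annotated gene, mean percent editing was 34.2% ± 0.587 (SD, n = 3), and over the 23 sites past it 43.1% ± 4.92 (SD, n = 3). In replicates 1, 2 and 3 the means were 33.7%, 34.9% and 34.1% inside it and 47.6%, 37.8% and 43.8% past it, closest in the deepest replicate. Median coverage fell from 66.5, 124.5 and 38.5 reads in replicates 1, 2 and 3 at the former to 32, 108 and 27 reads at the latter. Lower shares pass the confidence minimum less readily at shallower coverage, and whether this has a part in the difference was not tested.

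The gene sqv-6 (WBGene00005024) encodes the xylosyltransferase that starts glycosaminoglycan chains on their core proteins. It lies on the minus strand at 950306 to 964789, with 25 sites between 950615 and 951117. It was edited least of the 5 genes, at 17.8%, 15.8% and 17.6% for wild-type replicates 1, 2 and 3 (17.05% ± 1.11, SD, n = 3). In each replicate this lay below the means of the other 4 genes. No member site reached 50% on average, the highest stood at 46.4%, and 10 of the 25 sites were under 10%. Other positions listed in this span, outside the members, were higher, up to 100%, 95.7% and 100% in wild-type replicates 1, 2 and 3. It was also the most deeply covered of the 5, with median coverages of 143, 291 and 121 reads, at which lower edited shares pass the confidence minimum. Whether coverage has a part in the lower mean was not tested. Its sites began 488 nt past the stop codon, farther than those of the other 4 genes. The first block of 11 sites averaged 20.7% ± 2.69 and the second block of 14 sites 14.1% ± 1.47 (SD, n = 3 each), and the first was higher in each replicate.

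**Figure D2:**
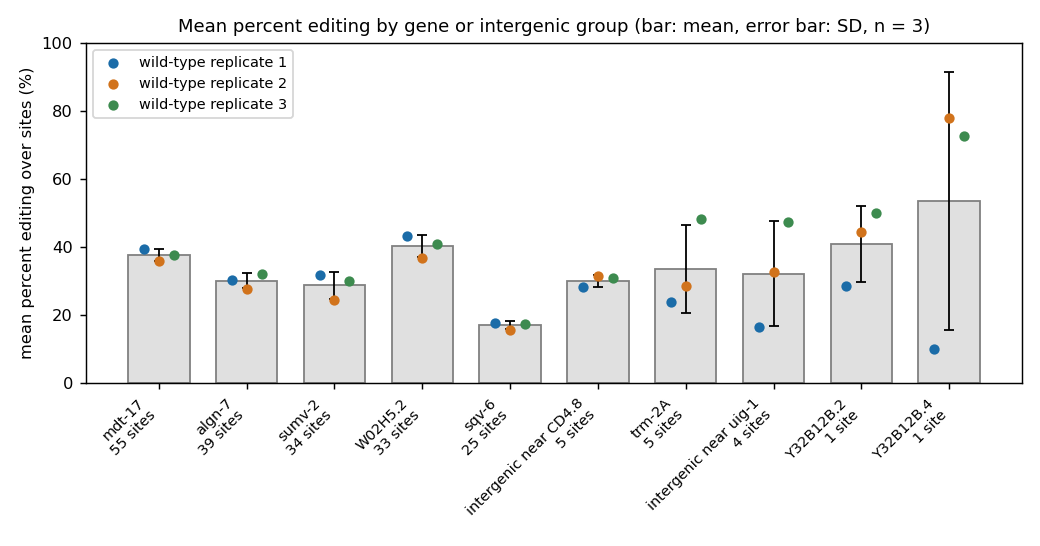
Mean percent editing over the sites of each gene or intergenic group on chromosome V, with bars for the mean of the 3 wild-type replicates, error bars for the SD and points for the replicates. The 5 genes with 25 or more sites have SDs of 1.11 to 3.88 percentage points, and 4 of the 5 groups with 5 or fewer sites have SDs above 11.

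The remaining 16 sites were in 5 smaller groups of lower coverage. The SD between replicates was above 11 percentage points in 4 of them and 1.76 in the intergenic group near CD4.8. In trm-2A (WBGene00019241, plus strand, 904963 to 911593), named for a family of tRNA methyltransferases, 5 sites lay in the 3′ UTR between 911184 and 911251. Their mean was 23.8%, 28.7% and 48.3% for wild-type replicates 1, 2 and 3 (33.6% ± 12.97, SD, n = 3). At 911192 the edited reads were 1 of 26, 8 of 62 and 13 of 32, so the replicates ranged from 3.85% to 40.6% at a site of moderate depth. Another 2 positions of trm-2A, at 911173 and 911174, reached the confidence minimum in every replicate but were left out because 1 of 90 adr-2(-) reads was edited at each.

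Introns held 2 sites, both on the plus strand and 13019 nt apart, in genes known by their clone names. The site of Y32B12B.2 (WBGene00012522), at 16544190 in an intron of 1092 nt, had 28.6%, 44.4% and 50% editing in wild-type replicates 1, 2 and 3, from 14, 18 and 8 reads. The site of Y32B12B.4 (WBGene00012524), at 16557209 in an intron of 1591 nt, had 1 of 10, 7 of 9 and 8 of 11 reads edited, or 10%, 77.8% and 72.7%. With so few reads either value is loosely set. Within 500 nt, the site of Y32B12B.2 had 2 other positions at the confidence minimum in 2 replicates and 5 in 1 replicate. That of Y32B12B.4 had 0 in 2 replicates and 7 in 1 replicate. At such depths 1 edited read can pass, as it did at 16557209 in replicate 1 with a confidence of 0.914. These calls therefore do not settle whether neighbouring bases were edited.

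The 9 intergenic sites formed 2 groups. On the minus strand, 4 sites lay between 5598604 and 5598618, 527 to 541 nt past the 3′ end of CD4.8 (WBGene00016993) on the same strand, with a mean of 23.8% ± 2.58 (SD, n = 3). Another site on this strand was 1072 nt from them at 5597532, where the nearest protein-coding gene was zhit-1 at 981 nt, with 57.1%, 60% and 50% editing from 7, 10 and 8 reads. On the plus strand, 4 sites lay between 13272055 and 13272083. The nearest protein-coding gene, uig-1, was 1074 nt away or more and on the other strand. Their mean was 16.7%, 32.8% and 47.2% for wild-type replicates 1, 2 and 3, from 15, 16 and 9 reads.

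The members of highest editing were few and were high in every replicate. Where each replicate had 20 reads or more, the top member was 19927403 in the middle block of algn-7. There 138 of 151, 183 of 208 and 108 of 121 reads were edited in wild-type replicates 1, 2 and 3 (89.5% ± 1.72, SD, n = 3). In mdt-17, 20251674 had 85.3%, 90.1% and 92.9% and 20251825 had 95.1%, 79.8% and 93.0%. Next were 19926934 in the last block of algn-7, with 78.7%, 90.9% and 90.4%, and 2646819 in W02H5.2, with 81.2%, 76.1% and 88.0%. The means of neighbouring sites in this order differed by less than the larger of their SDs. The members are not the upper end of all calls. Over all positions listed in a span, without a read minimum, the highest share was 100% in each wild-type replicate for mdt-17 and W02H5.2. It was 100%, 96.7% and 99.5% in replicates 1, 2 and 3 for sumv-2, and 94.7%, 90.9% and 90.4% for algn-7.

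At the other end, the lowest sites were deeply covered. At 950657 in sqv-6, 5 of 216, 9 of 427 and 9 of 215 reads were edited (2.87% ± 1.14, SD, n = 3). Of the other 4 lowest sites, 950662 and 950675 were also in sqv-6, at 4.39% and 4.79%, and 4627776 was in sumv-2, at 3.87%. The remaining one was 19927340 in algn-7, at 4.52%, in the same block as the highest member. Very different levels also stood at adjacent bases. Of 49 pairs of sites on adjacent bases, 14 differed by more than 20 percentage points in mean editing, with a median difference of 12.2 points and a largest of 61.5, against a median of 17.5 points between all pairs of sites within the 5 genes.

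The confidence minimum divided sites of similar level. The members nearest to it were 911191 and 911192 in trm-2A, each with 1 of 26 reads edited and a confidence of 0.778 in wild-type replicate 1, and 950662 in sqv-6, with 4 of 223 reads and a confidence of 0.816 in that replicate. Just outside were 20251853 in mdt-17, with 4 of 264 reads and 0.730 in replicate 2, 20251871 in mdt-17, with 2 of 109 reads and 0.706 in replicate 1, and 4627693 in sumv-2, with 5 of 366 reads and 0.697 in replicate 1. A confidence of at least 0.99 in every replicate was reached by 170 of the 202 members.

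More positions than the members were called in these stretches. Between the first and the last site of mdt-17, another 33 positions reached the confidence minimum in exactly 2 replicates and 43 in exactly 1. For algn-7 these numbers were 16 and 27, for sumv-2 21 and 28, for W02H5.2 23 and 24 and for sqv-6 7 and 11. The members are thus the positions that passed in all 3 wild-type libraries, less those listed for adr-2(-).

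The lists were also counted over the whole span from the first to the last member of a gene and over coding sequence. The rule set much of these counts, since it placed 191 members in the spans of every wild-type list and in none of adr-2(-), so they are a description. Depth bears on them too, since the confidence of 1 edited read was 0.914 at 10 reads, 0.778 at 26 and 0.409 at 90. Listed positions in the spans had 96 to 1413 reads in adr-2(-) but as few as 5 in wild type. How far depth sets the contrast was not tested. Within the spans of the 6 genes with at least 5 sites, positions at the confidence minimum numbered 270 of 295 listed in wild-type replicate 1, 376 of 456 in replicate 2 and 292 of 323 in replicate 3, against 0 of 19 listed in adr-2(-). In coding sequence of the 8 genes they numbered 2 of 134, 1 of 285 and 1 of 143 in wild type and 0 of 284 in adr-2(-). The adr-2(-) list thus held about as many coding positions as the deepest wild-type replicate. The 19 adr-2(-) positions in the spans had at most 1.04% edited reads. Of the members, 107 had an adr-2(-) listed position within 50 nt, and the lowest coverage there had a median of 305 reads, at which 0 edited reads allow a share of up to 0.984%. The smallest such coverage, 90 reads, allows up to 3.33%. Coverage of adr-2(-) at the members themselves is not given. The rule required the 0 edited reads, and neighbours are listed more often where coverage is deep. These limits are therefore not measurements at the members.

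On chromosome V 8 sites reached the minimum in every wild-type replicate but were listed for adr-2(-), 7 of them in trm-2A, sumv-2, algn-7 and sqv-6 and 1 in the coding sequence of emb-4. Their wild-type means ranged from 6.20% to 52.9% and their adr-2(-) shares from 0.142% to 1.11%, and 7 of the 8 had 1 edited adr-2(-) read.

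The spread between wild-type replicates at single sites was then set against counting error. Edited and unedited reads were compared by Fisher's exact test, two-sided, for each pair of replicates, with Benjamini-Hochberg adjustment over all 1012 sites. These reads also chose the sites, and each comparison sets 1 library against 1 other, so the counts describe these libraries and test nothing about editing. At 52 of the 202 sites (25.7%) at least 1 pair had an adjusted p of 0.05 or less, against 28.2% of all reproducible sites, which were chosen in the same way. Replicates 1 and 2 differed at 28 of the sites (13.9%, against 15.4% of all), replicates 1 and 3 at 30 (14.9%, against 15.3%) and replicates 2 and 3 at 18 (8.91%, against 9.98%). The shares on chromosome V were thus near those of all sites in each pair. Reads of sites in 1 block overlap and carry no molecular identifiers that were used, so the count of sites is not a count of independent differences. Without wild-type replicate 1 the remaining pair gave 18 sites, without replicate 2 it gave 30 and without replicate 3 it gave 28.

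**Figure D3:**
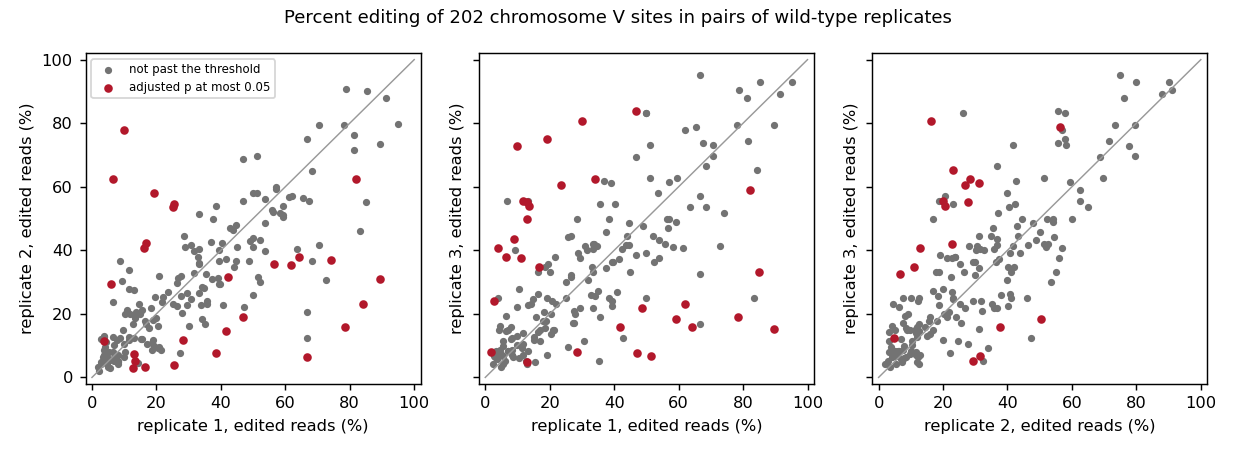
Percent editing of the 202 chromosome V sites in each pair of wild-type replicates, with the line of equal editing. Red points mark the 28, 30 and 18 sites that differed at an adjusted p of 0.05 or less (Fisher's exact test), which lie on both sides of the line.

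Differing sites were found in 9 of the 10 genes and intergenic groups. There were 13 in mdt-17, 12 in W02H5.2, 10 in algn-7, 8 in sumv-2 and 5 in sqv-6. Trm-2A, Y32B12B.4 and the 2 intergenic groups had 1 each. The widest spread, again at 20 reads or more in each replicate, was at 2646838, the last site of W02H5.2, with 6 of 20, 14 of 86 and 21 of 26 reads edited, or 30%, 16.3% and 80.8%. At 20251053 in mdt-17 the shares were 51.6%, 31.5% and 6.82%, and at 20251660 in the same gene 64.1%, 37.7% and 15.8%. In W02H5.2, 2646764 had 85.0%, 55.2% and 33.3% and 2646491 had 11.8%, 20.0% and 55.6%. The replicate with the highest share was thus not the same at these sites.

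Over the 202 sites, which share reads and libraries, Pearson's r of percent editing was lowest for replicates 1 and 3, at 0.631. It was 0.717 for replicates 1 and 2, and 0.777 for the pair of 2 and 3. Within genes, r for replicates 1 and 2, 1 and 3, and 2 and 3 was 0.823, 0.895 and 0.916 over the 25 sites of sqv-6 and 0.826, 0.755 and 0.875 over the 39 sites of algn-7. It was 0.635, 0.422 and 0.517 over the 33 sites of W02H5.2, the lowest of the 5 large genes in each pair. Replicate 2, the deepest library, had the lowest mean in each of the 5 large genes. It was also lowest in all 5 when edited reads were pooled over the sites of a gene, but by less: in sumv-2 the pooled shares were 24.2%, 21.7% and 24.6% and in mdt-17 37.2%, 36.8% and 37.9% in replicates 1, 2 and 3. Every site also had to pass the confidence minimum in the shallower replicates 1 and 3, where lower shares pass less readily. The order of the replicates is therefore a description, and whether this choice has a part in it was not tested.

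Expression of the 8 edited genes was compared between the strains to ask whether loss of ADR-2 went with a change of mRNA level. The confidence rule did not use this measure, although a site needs reads in every wild-type library to pass. The rule also left out gid-7, the only edited gene that the paper reports as changed in adr-2(-) germlines. The number of the 8 genes called is therefore in part set by this choice. The deposited normalized counts were tested with limma on log2(normalized count + 1) for the 9779 genes averaging 10 or more, and a gene was called if its adjusted p was 0.05 or less and its level moved by 0.5 or more on the log2 scale. None of the 8 genes was called, against 0.297% of all genes tested, and 1 of the 8 had an unadjusted p under 0.05, against 12.5% of all. On the recovered reads edgeR also called 0 of the 8, against 0.199% of all genes it tested, and DESeq2 0 of the 8, against 1.31%. With so few calls among all genes, a count of 0 sets these genes apart from no others. The log2 fold changes of adr-2(-) over wild type ranged from -0.05 for trm-2A to 0.23 for sqv-6, with a median of 0.07 beside 0.00 for all genes tested and a median standard error of 0.07. RNA per germline and the number of cells of a type cannot be told apart in such bulk samples.

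**Figure D4:**
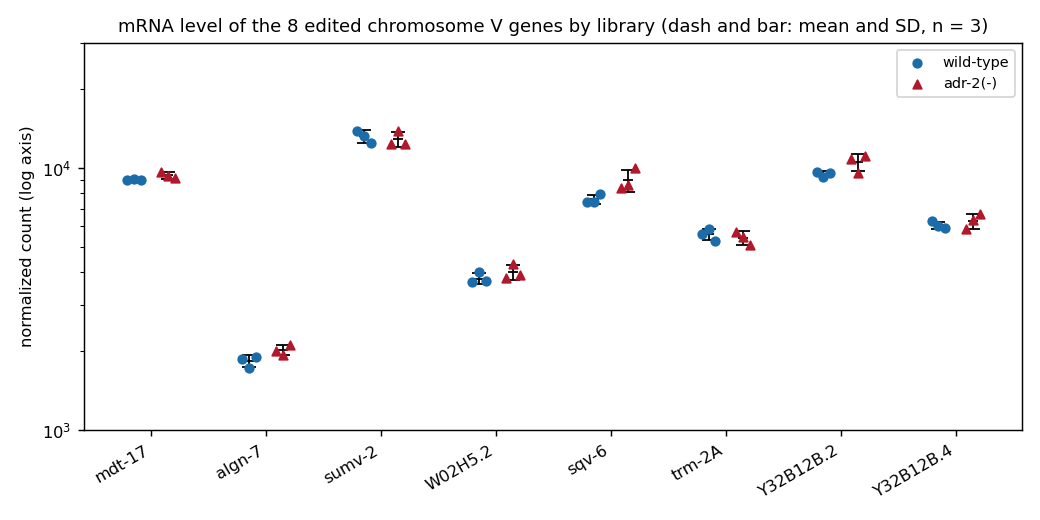
Normalized counts of the 8 edited chromosome V genes in each of the 3 wild-type and 3 adr-2(-) libraries on a log axis, with the mean and SD of each strain; values are compared within a gene only. The strains overlap for 5 genes, and all adr-2(-) libraries are higher for mdt-17, algn-7 and sqv-6.

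The largest difference was that of sqv-6. The wild-type libraries held 7448, 7413 and 7956 normalized counts of it (7606 ± 304, SD, n = 3). The adr-2(-) libraries held 8363, 8574 and 9950 (8962 ± 862, SD, n = 3). The strains did not overlap, and the two-sided exact permutation test gave p = 0.1, the smallest that 3 against 3 libraries allow. Its log2 fold change was 0.23 with a standard error of 0.08, which did not pass, at an adjusted p of 0.280 from limma. With other settings its adjusted p ranged from 0.0997 to 0.570 and its log2 fold change from 0.16 to 0.28.

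The next largest were Y32B12B.2 and algn-7. For Y32B12B.2 the normalized counts in wild type were 9666, 9259 and 9559, and those in adr-2(-) were 10824, 9600 and 11088. The strains overlapped, and the log2 fold change was 0.14 ± 0.07 (standard error), at an adjusted p of 0.430 by limma. For algn-7 the wild-type values were 1866, 1726 and 1911, all below the adr-2(-) values of 2013, 1937 and 2116. Its log2 fold change was also 0.14 ± 0.07 (standard error), at an adjusted p of 0.473 by limma.

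In mdt-17, the gene with the most sites, wild-type values of 9013, 9084 and 8968 stood below adr-2(-) values of 9655, 9292 and 9149. This difference without overlap was small, at 0.05 ± 0.05 on the log2 scale (standard error, adjusted p of 0.728 by limma). In sumv-2 the wild-type values of 13869, 13224 and 12465 overlapped the adr-2(-) values of 12383, 13839 and 12312, at -0.04 ± 0.07 on the log2 scale (standard error, adjusted p of 0.853 by limma). The remaining genes overlapped as well, with log2 differences of 0.08 for W02H5.2, 0.05 for Y32B12B.4 and -0.05 for trm-2A, each with a standard error of 0.07. The strains were thus without overlap for 3 of the 8 genes, against 18.8% of all genes tested.

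Genes of double-stranded RNA and small RNA pathways were also compared. Of the list of 10, drh-3 was not analysed here. The other 9 are dcr-1, which encodes Dicer, its partner rde-4, the Argonaute genes rde-1 and ergo-1, the helicase gene drh-1, the RNA-dependent RNA polymerase genes rrf-1 and rrf-3, the exonuclease gene eri-1 and the Tudor-staphylococcal nuclease gene tsn-1. None of the 9 was called by limma, by edgeR or by DESeq2, against 0.297%, 0.199% and 1.31% of all genes, and 0 had an unadjusted p under 0.05 in limma, against 12.5% of all. Their log2 fold changes ranged from -0.14 for tsn-1 to 0.10 for eri-1, with a median of 0.01.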

How the data were processed

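Poly(A)-selected RNA of 3 wild-type and 3 adr-2(-) germline samples was analysed. The authors aligned reads to the WS275 genome with STAR 2.7.10b and called editing with SAILOR, whose version is not given in the sources used here. Each deposited call carries a confidence score from 0 to 1. The deposited coverage is the read depth of a position, with the edited share beside it. The deposited expression signal is a normalized count, made by the authors by scaling the reads of each gene with a library-wide factor. How reads were counted per gene is not given in the sources used here. The authors' own fold changes and p-values from DESeq2 stand in the same table and were not used.

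Edited reads were taken as coverage times edited share, rounded. Percent editing is edited reads over coverage. Intervals and limits cover counting error only. Replicates are separate samples per the labels. The p-values for expression measure the spread between these samples, and those of Fisher's exact test between replicates measure counting error only. Regions were compared with the Ensembl release 115 annotation of WBcel235, and 170 of the 193 sites with a gene lay inside it. Undoing this factor gave whole reads, within 0.01, for 100% of the values. The values being normalized, limma 3.58.1 in R 4.3.3 was the main test and edgeR 4.0.16 and DESeq2 1.42.0 were alternatives. On simulated data, Fisher's exact test found 164 of 200 changed sites and 6 others among 1012, and limma found 190 of 200 genes changed 3-fold and 7 others among 9779.

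Named by rule were all genes with a site, the 5 highest, 5 lowest and 5 most variable sites where each replicate had 20 reads or more, and a list of genes of double-stranded RNA and small RNA pathways. Members and lists were chosen with earlier results of these data known. Sequences and predicted folding of the sites were not analysed here, since no genome sequence was used. Other software was SciPy 1.17.1, statsmodels 0.14.6, pandas 2.3.3, NumPy 2.4.6 and Matplotlib 3.10.9 in Python 3.11.15.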

Additional observations from a re-analysis of the deposited data

How the results depend on the processing

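The number of chromosome V sites stayed between 161 and 271 under every alternative run. Its median percent editing of 29.9% followed the filter: 27.8% at a confidence minimum of 0.5, 34.2% at 0.99, 26.6% with at least 20 reads in every replicate, and 24.2% to 29.2% with 1 wild-type replicate left out. Counting each gene or intergenic group once gave 32.9%. The share in 3′ UTRs of 94.6% was 98.1% with at least 20 reads, 60.0% with each gene or intergenic group counted once, 83.2% with regions from the Ensembl annotation, in which 23 sites of W02H5.2 lie past the gene's end, and 90.0% to 94.0% with 1 replicate left out. The 52 sites differing between replicates became 15 with Bonferroni adjustment and 18 to 30 with 1 replicate left out, which leaves 1 pair.

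None of the 8 edited genes, which leave out gid-7, was called in any alternative. With the replicate number as a block the count was 0 as well. The deviations of same-numbered libraries had r of 0.03, -0.22 and 0.38 for numbers 1, 2 and 3, above 0.1 for 1 of the 3 pairs, so the numbers were not taken to pair the libraries. Of 96 log2 fold changes of the 8 genes under these alternatives 1 changed sign: that of trm-2A, -0.05, ranged from -0.0857 to 0.00099 with 1 library left out, the last value without adr-2(-) replicate 3. The base next to the sites and their predicted pairing, planned as further results, were not run because no genome sequence was used.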
